A study of Mus musculus with 2 samples.

Results

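Conventional NK cells were described in 2 single-cell RNA-Seq libraries of mouse liver with cholangiocarcinoma (CCA), 1 from animals given PBS and 1 from animals given an anti–PD-1 antibody. They were chosen by their transcripts. A cell had to have 500 to 5000 detected genes and at most 10% mitochondrial transcripts, counted as unique molecular identifiers (UMIs). It also had to have a UMI of at least 2 of the 4 pan-NK genes *Ncr1*, *Klre1*, *Klrb1c* and *Klrb1b*, at least 1 UMI summed over the 5 conventional NK genes *Eomes*, *Itga2*, *Klra8*, *Klra4* and *S1pr5*, and no UMI of 8 genes that mark other cells. Those 8 were *Cd3d*, *Cd3e*, *Cd3g*, *Cd79a* and *C1qa* of T cells, B cells and macrophages, and *Il7r*, *Cxcr6* and *Gzmc* of type 1 innate lymphoid cells (ILC1). This left 226 conventional NK cells of 31891 cells that passed the first 2 limits, 110 of them from PBS animals and 116 from anti–PD-1 animals. The 17 genes of the rule were measured in these same cells, so their levels are a description and support nothing.

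Both libraries came from animals of the shYT genotype. Their CCAs had been started by HDTVI (hydrodynamic tail vein injection) of 2 oncogenes, the intracellular domain of Notch and a membrane-bound AKT, and a doxycycline-inducible shRNA construct against YAP and TAZ, driven throughout the body by CAG-rtTA3, was switched on at day 25. The treated animals were given anti-mouse PD-1 (clone RMP1-14) at days 26, 29 and 32, the others PBS, and whole tumor-bearing livers were digested at day 33. The driver is meant to express the shRNA in all tissues, but its expression in NK cells was not measured here. Both libraries carry the construct, so the effect of depleting YAP and TAZ was not compared. The labels give no number of animals, sex or shRNA line for these libraries, and the study states an n per group for its plots of T cells from this experiment without saying how animals were combined into a library. Each group was 1 library. No test was therefore possible, the spread between animals is unknown, and each interval below (95%) covers counting error only.

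NK cells are innate lymphocytes that kill infected, stressed or transformed cells without a rearranged antigen receptor. They weigh signals of activating receptors against those of inhibitory receptors that bind MHC class I, release perforin and granzymes onto the target, and secrete interferon-γ and chemokines. In mouse liver, conventional NK cells depend on *Eomes*, circulate and carry the integrin CD49b (*Itga2*), whereas ILC1 depend on *Tbx21* without *Eomes*, stay in the sinusoids and carry CD49a (*Itga1*).

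The results below turn most on genes that lymphocytes switch on within minutes to hours of receptor stimulation, the 3 orphan nuclear receptors of the Nr4a family among them. Their RefSeq promoters are shown because all 3 genes had several-fold more transcripts after anti–PD-1. Nr4a family genes are textbook targets of the cAMP response element binding protein, so the 250 bases before each RefSeq start (GRCm38.p6, the mm10 assembly) were searched for its half-site TGACG, or CGTCA on the other strand. Capitals mark the half-sites in the following promoters of *Nr4a1* (chr15:101266596-101266845, forward strand), *Nr4a2* (chr2:57124004-57124253, reverse strand) and *Nr4a3* (chr4:48045055-48045304, forward strand), each written 5′ to 3′ on the strand of the gene.
Nr4a1: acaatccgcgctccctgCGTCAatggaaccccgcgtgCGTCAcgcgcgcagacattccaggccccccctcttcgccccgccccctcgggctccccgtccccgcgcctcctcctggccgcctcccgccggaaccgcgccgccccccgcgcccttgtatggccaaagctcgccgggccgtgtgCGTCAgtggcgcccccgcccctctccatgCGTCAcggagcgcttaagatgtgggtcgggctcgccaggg
Nr4a2: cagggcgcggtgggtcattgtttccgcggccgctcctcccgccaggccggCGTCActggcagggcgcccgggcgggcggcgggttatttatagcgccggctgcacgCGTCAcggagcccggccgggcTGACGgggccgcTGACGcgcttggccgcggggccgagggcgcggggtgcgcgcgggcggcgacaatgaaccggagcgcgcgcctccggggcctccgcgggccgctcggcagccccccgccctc
Nr4a3: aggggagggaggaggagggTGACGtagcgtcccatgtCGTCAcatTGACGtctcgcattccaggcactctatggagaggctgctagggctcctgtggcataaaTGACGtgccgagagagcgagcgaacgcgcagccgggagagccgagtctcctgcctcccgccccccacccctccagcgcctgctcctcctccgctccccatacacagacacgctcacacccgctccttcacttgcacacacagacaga
Each of the 3 windows held 4 half-sites. Of 32851 RefSeq promoters of this length, 17.8% held at least 1 half-site and 0.137% at least 4, counted on both strands and with overlaps allowed. The limit of 4 is the count seen in these windows, and the promoters were not matched for CG content, though both half-sites hold CG. The whole 8-base site TGACGTCA was in none of the 3 windows and in 1.55% of all promoters. A match of letters is a description and no evidence of binding, and the *Nr4a1* window lies inside the gene span that GENCODE gives (101254269 to 101274795), because a start further upstream is also annotated.

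The libraries held 19397 and 19451 barcodes, of which 15531 (80.1%) and 16360 (84.1%) were kept. Summed over the conventional NK cells there were 248545 PBS and 387580 anti–PD-1 UMIs, with medians of 1885 (725 to 10409) and 2677 (967 to 13681) per cell. One UMI was therefore worth 4.02 and 2.58 CPM (counts scaled to a sum of 1000000 over these cells), the unit in which levels are given below, PBS first. No barcode of a conventional NK cell occurred in both libraries, although 219 barcodes of all those deposited did. The libraries also stood apart in sex-linked transcripts. *Xist*, transcribed from the inactive X chromosome, was found in 33 of 110 conventional NK cells and in 1 of 116, and a Y-linked UMI in 17 and 45. When only cells that had Y-linked but lacked *Xist* transcripts were taken, 12 PBS and 44 anti–PD-1 cells, the *Nr4a1* log2 ratio given below was 2.48 in place of 3.36. These cells are not shown to be male, since 5 of the 17 PBS and 1 of the 45 anti–PD-1 cells with a Y-linked UMI also had *Xist*. Sex and treatment cannot be told apart. By a simulation of doublets, 1 PBS and 2 anti–PD-1 members were marked, with a threshold that most simulated doublets did not pass, so unmarked doublets may remain.

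Markers that the rule did not use were present, some of them shared with other cells. *Nkg7*, a granule membrane protein of killer cells, was at 3834 CPM with PBS and 3364 CPM with anti–PD-1, against 2030 and 2261 CPM in ILC1-like cells and 1180 and 1462 CPM in T cells. *Tyrobp*, the adaptor DAP12 of activating receptors, was at 2358 and 2650 CPM, against 1792 and 2013 CPM in ILC1-like cells and 4784 and 4866 CPM in neutrophils. *Klrd1*, the CD94 chain of NKG2 receptors, was at 1352 and 1210 CPM, against 1074 and 936 CPM in ILC1-like cells. *Prf1* (perforin) was at 1131 and 1197 CPM, against 159 and 278 CPM in ILC1-like cells, and the mast cell protease gene *Cma1* at 241 and 227 CPM with no UMI in ILC1-like cells of either library. Other markers were not higher than in ILC1-like cells. *Il2rb* was at 1191 and 1409 CPM, against 1714 and 1754 CPM there, and *Klrk1* at 1014 and 694 CPM, against 1015 and 795 CPM. Of 15 NK identity genes measured, 11 were higher than in ILC1-like cells with PBS and 12 with anti–PD-1. Their median log2 ratio over ILC1-like cells was 0.395 and 0.396, against 0.0023 and −0.02 over the 6397 genes compared. Transcripts of other cells were present too. *Trac*, the constant chain of the T cell receptor α gene, had UMIs in 7 and 14 cells, *Trbc1* in 47 and 70 and *Trbc2* in 22 and 20, and 61 of 110 and 78 of 116 cells had a UMI of at least 1 of the 3. *Cd8a* had none. Unrearranged *Trbc1* and *Trbc2* transcripts are known in NK cells, and whether T cells without a CD3 UMI contributed was not tested.

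The thresholds cut through a range. At the pan-NK limit, 39 PBS and 37 anti–PD-1 members had exactly 2 of the 4 genes, with *Gzma* (granzyme A) at 7877 and 9139 CPM and *Prf1* at 932 and 1095 CPM. Just outside, 20 and 16 cells met all else with 1 pan-NK gene, at 1369 and 2980 CPM of *Gzma* and 146 and 522 CPM of *Prf1*. At the conventional limit, 11 and 13 members had exactly 1 UMI, with *Gzma* at 6218 and 7521 CPM. The 42 and 53 cells with no conventional and no ILC1 gene had *Gzma* at 2584 and 4030 CPM.

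Conventional NK cells made up 0.708% of kept PBS cells (0.582% to 0.853%) and 0.709% of those kept with anti–PD-1 (0.586% to 0.850%), and the shares lay 0.000786 points apart (−0.186 to 0.186). Among the 360 and 372 cells of the NK lineage gate, which are all cells with 2 pan-NK genes and none of the CD3, *Cd79a* and *C1qa* UMIs, they were 30.6% (25.8% to 35.6%) and 31.2% (26.5% to 36.2%). ILC1-like cells, with *Il7r*, *Cxcr6* or *Gzmc* and no conventional gene, numbered 178 and 169 in that gate, cells with both kinds of gene 30 and 34, and cells with neither 42 and 53. The equal shares depended on the strict absence of other genes. Of the cells with 2 pan-NK genes, 289 of 867 PBS cells and 562 of 1220 anti–PD-1 cells had a *C1qa* UMI, 319 and 467 a CD3 UMI and 22 and 130 a *Cd79a* UMI. When 1 UMI summed over these genes was allowed, 147 and 202 cells qualified, and the shares were 0.946% and 1.23%, a difference of 0.288 points (0.0598 to 0.517). When conventional NK cells with 3 or more UMIs of neutrophil, endothelial and red cell genes were left out, 101 and 63 remained. They were set against all 15531 and 16360 kept cells, from which such cells were not removed, so each share could only fall. The difference was −0.265 points (−0.428 to −0.108). No order of the libraries is read from the share.

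Of 19 gene lists of NK cell biology, receptor-induced activation genes differed most between the libraries. The lists were chosen with earlier results of these data known, so this rank and the counts below are a description and no independent support. For each gene the log2 ratio of anti–PD-1 over PBS was taken with 5 CPM added to each level, so ratios of low genes are understated, and a gene counted as measured with at least 20 CPM in either library. A gene below this limit in either library was measured through the other only, and could be called only as higher there. Of 7642 genes measured, 5.93% were at least 2-fold higher with anti–PD-1 and 13.9% at least 2-fold lower, and the median ratio was −0.20. Over the 932 genes with at least 200 CPM the median was 0.06. Each count below of list members at least 2-fold apart stands against these shares of 5.93% and 13.9%. No such share is given for intervals, so counts of intervals above 0 or apart from each other are a description only. Of 24 receptor-induced activation genes, 21 were measured, 17 of them at least 2-fold higher and none at least 2-fold lower, with a median log2 ratio of 1.78. *Egr2*, *Egr3* and *Irf4* were not measured.

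*Nr4a1* was at 201 CPM (149 to 265) with PBS and at 2118 CPM (1976 to 2268) with anti–PD-1, which gave a log2 ratio of 3.36 (2.96 to 3.79). Its UMIs came from 27 of 110 and 102 of 116 cells. *Nr4a2* was at 92.5 and 642 CPM (log2 ratio 2.73, 2.14 to 3.37), and *Nr4a3* at 56.3 and 436 CPM (2.85, 2.11 to 3.66). The intervals of the PBS and anti–PD-1 levels of the 3 genes did not overlap, and the share of all genes for which this holds is not given here. The AP-1 family gene *Fosl2* went from 32.2 to 410 CPM (3.48, 2.56 to 4.49) and *Crem*, a cAMP-responsive regulator, from 56.3 to 482 CPM (2.99, 2.26 to 3.80). *Vps37b*, a subunit of the ESCRT-I sorting complex, went from 189 to 1507 CPM (2.96, 2.54 to 3.41), with UMIs in 33 PBS and 106 anti–PD-1 cells. None of these genes took its anti–PD-1 level from a single cell, the highest cell holding 30 of 821 *Nr4a1* UMIs and 24 of 584 *Vps37b* UMIs.

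The activation list also holds genes of the NF-κB pathway. *Nfkbia*, which encodes IκBα, was at 519 CPM and 2353 CPM (log2 ratio 2.17, 1.90 to 2.44). *Tnfaip3*, the ubiquitin-editing enzyme A20, was at 145 and 1048 CPM (2.81, 2.33 to 3.33), and *Nfkbid* at 88.5 and 454 CPM (2.30, 1.68 to 2.96). Of the NF-κB subunits, *Rel* was at 40.2 and 134 CPM (1.62, 0.71 to 2.61, but −0.35 in Y-linked cells without *Xist*) and *Nfkb1* at 125 and 194 CPM (0.61, 0.01 to 1.24). *Cd69*, an early surface marker of activation that also holds lymphocytes in tissue, was at 60.4 and 188 CPM (1.56, 0.79 to 2.39). *Tnfrsf9*, the costimulatory receptor 4-1BB, was at 109 and 132 CPM (0.27, −0.41 to 0.96), an interval that spans 0.

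**Figure D1:**
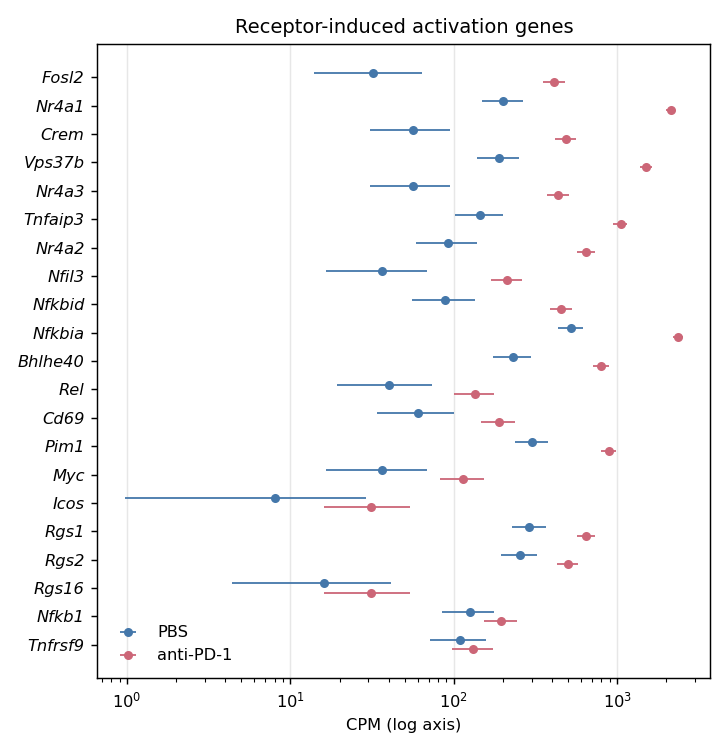
Level of each measured receptor-induced activation gene in conventional NK cells, in CPM on a log axis, with the PBS library in blue and the anti–PD-1 library in red. Points are summed UMIs per library and bars are exact Poisson 95% intervals. All 21 genes lie further right in the anti–PD-1 library, and the bars overlap for *Icos*, *Rgs16*, *Nfkb1* and *Tnfrsf9*.

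The change was spread over the cells. After each kept cell had been thinned at random to 1000 UMIs and gated again, 98 PBS and 109 anti–PD-1 cells met the rule. Thinning can remove UMIs of the excluded genes, so cells outside the unthinned set could enter. At 2000 UMIs 51 and 96 cells met the rule, though only 48 and 80 unthinned members were that deep. Thinned shares and the unthinned shares beside them therefore come from partly different cells. A PBS cell had UMIs of a median of 2 of the 24 activation genes (interquartile range 1 to 3, highest 9), and an anti–PD-1 cell of 8 (6 to 9, highest 12). At least 5 of the genes were found in 12.2% of PBS cells (6.49% to 20.4%), against 86.2% with anti–PD-1 (78.3% to 92.1%). None of the genes was found in 11 PBS cells (11.2%) and in 0 of 109 anti–PD-1 cells, which allows a share of up to 3.33%. The *Nr4a1* share was 14.3% and 74.3%, a difference of 60.0 points (47.9 to 69.2), and without thinning it was 24.5% and 87.9%. In the same cells *Vps37b* was found in 19.4% and 67.0% (unthinned in 33 and 106 cells), *Nfkbia* in 29.6% and 82.6% (44.5% and 97.4%), *Tnfaip3* in 16.3% and 59.6% (20.9% and 83.6%) and *Fosl2* in 5.10% and 37.6% (7.27% and 59.5%).

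**Figure D2:**
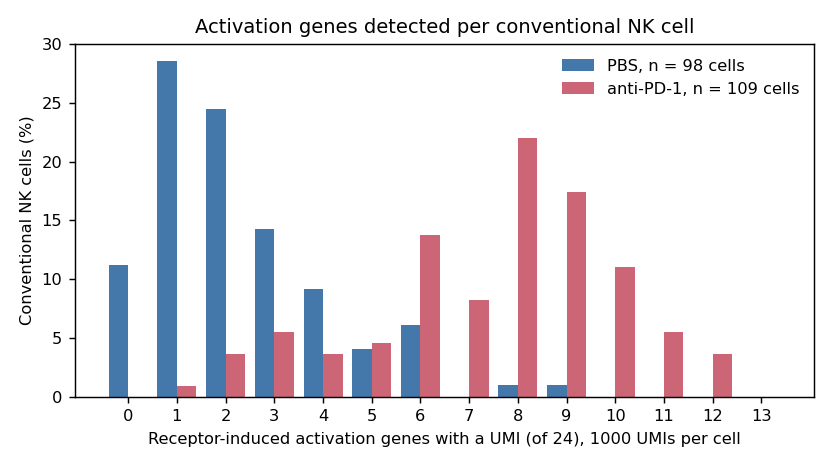
Share of conventional NK cells by the number of receptor-induced activation genes with a UMI, after every cell was thinned to 1000 UMIs. PBS cells (98, blue) peak at 1 gene and anti–PD-1 cells (109, red) at 8 genes, and the 2 distributions overlap between 1 and 9.

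Other cells of the anti–PD-1 library had more of these transcripts as well. The list median was 1.80 in ILC1-like cells, 1.18 in T cells, 1.54 in B cells and 0.97 in neutrophils. At least 5 of the genes were found in 11.7% and 84.7% of thinned ILC1-like cells, 8.75% and 49.0% of T cells, 2.83% and 29.99% of B cells and 10.97% and 44.6% of neutrophils. Thinned shares with *Nr4a1* were 8.75% and 50.4% in B cells and 18.4% and 54.6% in neutrophils. *Tnfaip3* was found in 5.11% and 12.7% of B cells and in 5.07% and 20.5% of neutrophils, and *Nfkbia* in 34.19% and 34.96% of B cells and in 55.8% and 58.5% of neutrophils. The differences between cell types were not tested.

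Early response and dissociation genes, kept as a separate list, were mostly higher too. Of 16 measured, 15 had ratios above 0, 11 of them with intervals above 0. At least 2-fold higher were 7 and none was at least 2-fold lower, with a median of 0.96. Which genes stand in which list was a choice, so the medians of the 2 lists are not weighed against each other. *Fosb* was at 20.1 and 181 CPM (log2 ratio 2.89, 1.77 to 4.06), *Junb* at 1155 and 3661 CPM (1.66, 1.48 to 1.85), *Jund* at 764 and 1902 CPM (1.31, 1.08 to 1.55) and *Atf3* at 52.3 and 144 CPM (1.38, 0.55 to 2.28). *Jun* itself was at 511 and 593 CPM (0.21, −0.10 to 0.53), and the heat shock gene *Hsp90aa1* at 1147 and 1017 CPM (−0.17, −0.40 to 0.05). The part of digestion and handling in the activation genes was not tested.

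Granzymes and perforin were within 2-fold. *Gzma*, the granzyme with the most UMIs here, was at 8674 CPM (8312 to 9049) and 9108 CPM (8810 to 9413), and the log2 ratio was 0.07 (−0.01 to 0.15). *Prf1* was at 1131 and 1197 CPM (0.08, −0.13 to 0.30), *Gzmb* at 1320 and 1545 CPM (0.23, 0.03 to 0.43) and *Nkg7* at 3834 and 3364 CPM (−0.19, −0.31 to −0.07). *Fasl*, the death ligand, was at 177 and 258 CPM (0.53, 0.02 to 1.06). Thinned shares were 92.9% and 92.7% for *Gzma* (unthinned 96.4% and 94.0%), 63.3% and 60.6% for *Prf1* (79.1% and 81.0%) and 54.1% and 56.0% for *Gzmb* (63.6% and 74.1%). The differences had intervals from −7.63 to 7.55 points for *Gzma*, −15.6 to 10.4 for *Prf1* and −11.5 to 15.2 for *Gzmb*. Thinned B cells, which should lack these genes, had *Gzma* in 1.35% and 4.34%, *Prf1* in 0.269% and 0.813% and *Gzmb* in 0.404% and 2.53%. In ILC1-like cells *Gzma* went from 1057 to 2313 CPM (1.13, 0.98 to 1.27). Its ratio was 1.55 in B cells and 1.59 in neutrophils, and whether conventional NK and ILC1-like cells differ was not tested.

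Among granule genes, an inhibitor and a carrier of granzymes were higher. *Serpinb9*, the inhibitor of granzyme B, was at 439 CPM (360 to 529) and 999 CPM (901 to 1103), and the log2 ratio was 1.18 (0.87 to 1.49). *Srgn*, the granule proteoglycan serglycin, was at 857 and 1878 CPM (1.13, 0.91 to 1.35), and *Serpinb6b* at 322 and 632 CPM (0.96, 0.60 to 1.34). Thinned shares with *Serpinb9* were 36.7% and 56.9% (unthinned 55.5% and 78.4%), against 1.62% and 1.72% in B cells, and the difference was 20.1 points (6.53 to 32.7). The *Serpinb9* log2 ratio was 1.98 (1.65 to 2.33) in ILC1-like cells and 1.18 (1.00 to 1.36) in T cells. In B cells it was 0.71 and in neutrophils −0.06. *Srgn* is made by most leukocytes and was found in 56.8% and 75.1% of thinned B cells. Of the 17 granule and death ligand genes measured, 3 were at least 2-fold higher, namely *Serpinb9*, *Srgn* and the syntaxin gene *Stx11* (28.2 and 61.9 CPM, 1.01, −0.11 to 2.19). One was at least 2-fold lower, the granule priming factor *Unc13d*, at 48.3 and 20.6 CPM on 12 and 8 UMIs (−1.06, −2.24 to 0.16), which turned to 1.14 in thinned cells and 2.72 in Y-linked cells without *Xist*. The list median was 0.23.

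**Figure D3:**
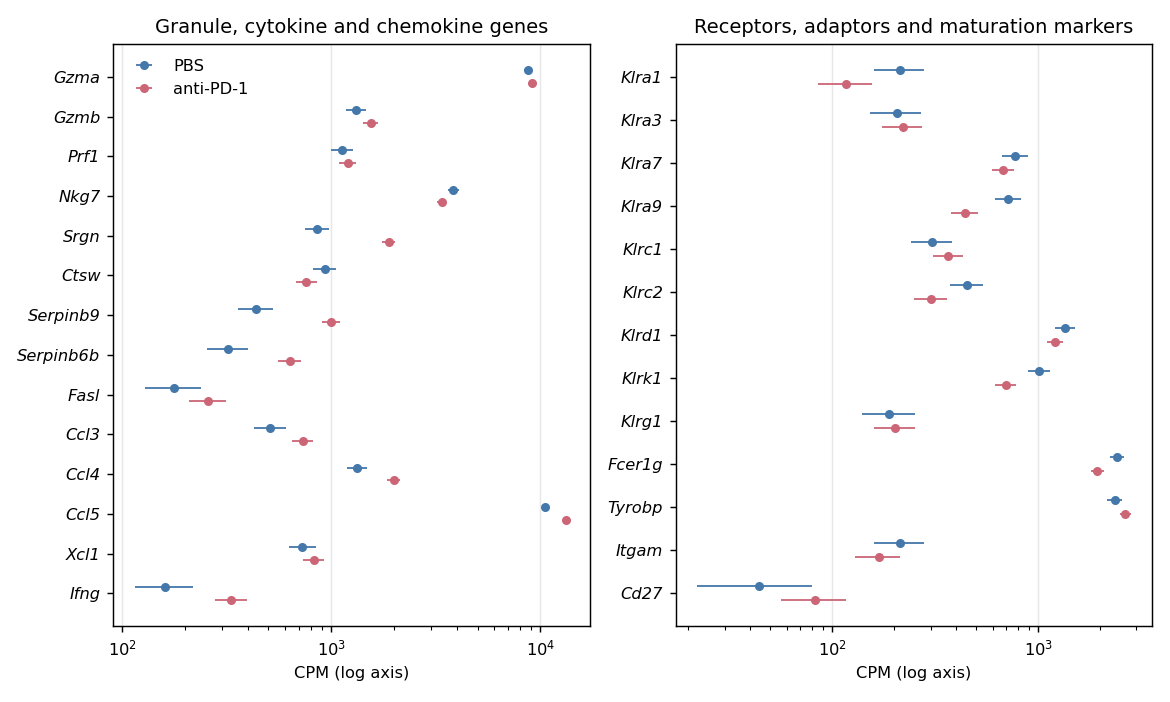
Levels of granule, cytokine and chemokine genes (left) and of receptors, adaptors and maturation markers (right) in conventional NK cells, in CPM on log axes, with the PBS library in blue and the anti–PD-1 library in red. Bars are exact Poisson 95% intervals. *Srgn*, *Serpinb9*, *Serpinb6b* and *Ifng* are further right in the anti–PD-1 library, *Klra1*, *Klra9* and *Klrk1* further left, and *Gzma* and *Prf1* close together.

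Among secreted mediators, *Ifng* was at 161 CPM (115 to 219) and 333 CPM (278 to 395), and the log2 ratio was 1.03 (0.52 to 1.56), with UMIs in 23 and 50 cells. Its thinned share was 14.3% and 25.7%, a difference of 11.4 points (0.383 to 21.9), and 23.5% and 31.3% in cells thinned to 2000 UMIs, a difference of 7.72 points (−7.95 to 21.4), an interval that spans 0. At 1000 UMIs B cells had 0.00% and 0.271%. Without thinning, conventional NK cells had 20.9% and 43.1%. The *Ifng* log2 ratio was 0.81 (0.45 to 1.17) in ILC1-like cells and 0.44 (0.29 to 0.59) in T cells. In B cells it was 0.42 and in neutrophils 1.19. The chemokine *Ccl5* was at 10549 and 13187 CPM (0.32, 0.25 to 0.39), *Ccl4* at 1324 and 1984 CPM (0.58, 0.39 to 0.77) and *Ccl3* at 511 and 730 CPM (0.51, 0.21 to 0.82). *Xcl1*, which attracts cross-presenting dendritic cells, was at 728 and 823 CPM (0.18, −0.09 to 0.44). Its thinned share was 19.4% and 30.3%, a difference of 10.9 points (−0.982 to 22.2) that spans 0, and 1 PBS cell held 62 of 181 *Xcl1* UMIs. Of 10 genes of this list measured, 2 were past 2-fold higher by the ratio with 5 CPM added, *Ifng* and *Il10*, and 1 past 2-fold lower, *Flt3l*, and the median was 0.55. *Il10* had 0 and 8 UMIs, at least 1.71-fold higher if the PBS level is set to a floor of 3 counts, a bound that does not reach 2-fold. *Flt3l*, a growth factor of dendritic cells, had 16 and 10 UMIs (64.4 and 25.8 CPM, −1.17, −2.25 to −0.08), and its ratio turned to 2.72 in Y-linked cells without *Xist*.

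**Figure D4:**
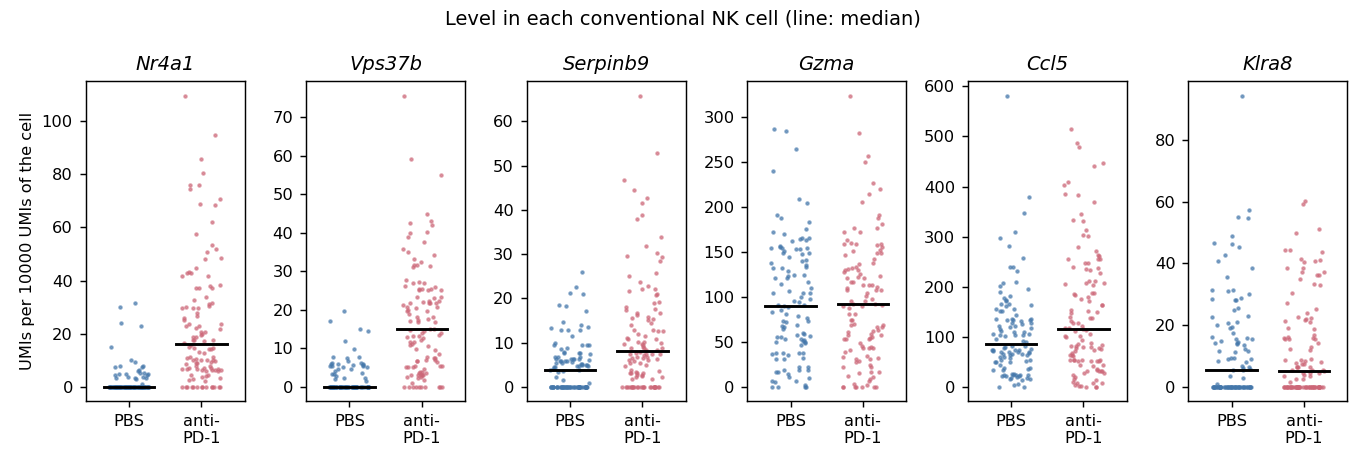
Level of 6 genes in every conventional NK cell, in UMIs per 10000 UMIs of the cell, with 1 point per cell and the median as a line, for 110 PBS and 116 anti–PD-1 cells. The median of *Nr4a1* is 0 and 16.2 and that of *Serpinb9* 3.73 and 8.14, while those of *Gzma*, 90.3 and 91.8, lie close together. *Klra8*, with medians of 5.45 and 5.18, is a gene of the rule and is shown as a description only.

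Single cells spanned a wide range, counting noise included. Per 10000 UMIs of a cell, *Gzma* ranged from 16.05 at the 10th percentile to 171 at the 90th in PBS cells and from 11.6 to 177 in anti–PD-1 cells, around medians of 90.3 and 91.8. *Nr4a1* was at or below 6.46 in 90% of PBS cells, and its median in anti–PD-1 cells was 16.2. *Ccl5* had medians of 86.4 and 116 and 90th percentiles of 207 and 332. Split by genes that the rule did not use, the activation list had log2 medians of 2.18 and 1.84 in cells with and without a *Klrg1* UMI and 2.53 and 1.597 in cells with and without an *Itgam* UMI. These splits were chosen after the data were seen, and the difference between them was not tested.

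The genes of the rule were read as a description. *Ncr1*, the activating receptor NKp46, was at 925 CPM (810 to 1053) and 475 CPM (409 to 549), and the log2 ratio was −0.96. *Klre1* was at 1255 and 1269 CPM, *Klrb1c*, which encodes NK1.1, at 885 and 611 CPM, and *Klrb1b* at 253 and 302 CPM. *Eomes*, the transcription factor that conventional NK cells require, was at 310 and 359 CPM, and *Itga2* at 149 and 129 CPM. *S1pr5*, a sphingosine phosphate receptor for exit into the blood, was at 221 and 111 CPM, with UMIs in 39 and 29 cells. *Klra8* (Ly49H, mm10 chromosome 6, 130115226 to 130129898, reverse strand) was at 1147 and 1014 CPM and *Klra4* (Ly49D, chromosome 6, 130043731 to 130067271, reverse strand) at 1203 and 890 CPM. A cell needs only some of these genes to pass, so single genes were free to differ.

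Other Ly49 receptors lie in the same cluster on chromosome 6, and reads of these near-identical genes may have been split among them in counting, so each level is uncertain. *Klra7* (Ly49G) was at 772 and 673 CPM (log2 ratio −0.20, −0.47 to 0.08), *Klra9* (Ly49I) at 716 and 439 CPM (−0.70, −1.01 to −0.39), *Klra1* (Ly49A) at 213 and 116 CPM (−0.85, −1.43 to −0.27) and *Klra3* (Ly49C) at 205 and 219 CPM (0.09, −0.41 to 0.61). These 4 bind MHC class I and inhibit the cell, whereas Ly49H and Ly49D activate it through DAP12. No Ly49 receptor was 2-fold apart.

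Among other receptors, *Klrk1* (NKG2D), which binds stress-induced ligands, was at 1014 and 694 CPM (log2 ratio −0.54, −0.80 to −0.29) and *Klrc2* (NKG2C) at 451 and 302 CPM (−0.57, −0.95 to −0.19). *Klrb1f* was at 241 and 142 CPM (−0.75, −1.28 to −0.21) and *Fcer1g*, an adaptor of Fc and natural cytotoxicity receptors, at 2414 and 1940 CPM (−0.31, −0.47 to −0.16). Of 15 activating receptors and adaptors measured, 1 was at least 2-fold higher, *Cd160* (56.3 and 124 CPM, 1.07, 0.24 to 1.95), and 1 lower, *Crtam* on 11 and 6 UMIs, 10 of the 11 from 1 cell, and the median was −0.25. The ratio of *Crtam* turned to between 0.15 and 3.26 under 4 alternatives. Of 15 NK identity genes outside the rule, none was 2-fold apart, with a median of −0.09.

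*Pdcd1*, the gene of PD-1, had no UMI in the 110 PBS cells or in the 116 anti–PD-1 cells, and 1 of 96 anti–PD-1 cells that passed the rule after thinning to 2000 UMIs had one. Transcription of the target of the antibody was not detectable in the unthinned cells at this depth. Of 12 inhibitory receptors and checkpoints measured, 3 were at least 2-fold higher, all on few UMIs, and none lower, with a median of 0.18. *Ctla4* had 1 and 16 UMIs, a ratio of CPM of 10.3 (1.59 to 430), and *Lag3* 2 and 12 UMIs, a ratio of 3.85 (0.857 to 35.4). These genes passed the CPM limit with anti–PD-1 only, so they could be called in that direction only. *Tigit* had 5 and 18 UMIs (20.1 and 46.4 CPM, log2 ratio 1.03, −0.24 to 2.33), which turned to −0.43 in thinned cells and −0.80 in Y-linked cells without *Xist*. *Klrc1*, the inhibitory NKG2A chain, was at 306 and 366 CPM (0.26, −0.15 to 0.67). *Klrg1*, an inhibitory receptor of mature cells, was at 189 and 201 CPM (0.09, −0.44 to 0.63).

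Mouse NK cells mature from CD27+ to CD11b+ (*Itgam*) CD27- cells that gain *S1pr5*, *Cx3cr1* and *Zeb2*. *Itgam* was at 213 and 168 CPM (log2 ratio −0.34, −0.87 to 0.20) and *Cd27* at 44.3 and 82.6 CPM (0.83, −0.12 to 1.83). Thinned cells with an *Itgam* and no *Cd27* UMI were 20.4% and 26.6%, and those with *Cd27* and no *Itgam* 2.04% and 7.34%, with overlapping intervals, and unthinned 33.6% and 32.8% and 5.45% and 14.7%. *Itgam* is also a gene of neutrophils and macrophages, found in 35.7% and 24.8% of thinned neutrophils and in 1.48% and 0.994% of B cells, and *Cd27* in 0.404% and 0.723% of B cells. The cells are given by their UMIs and not as stages. Of 14 mature NK genes measured, none was at least 2-fold higher and 2 were lower, *Cx3cr1* (40.2 and 10.3 CPM, −1.56, −2.82 to −0.14) and *S1pr1* (36.2 and 15.5 CPM, −1.01, −2.29 to 0.35), on 10 and 4 and on 9 and 6 UMIs. These 2 passed the CPM limit with PBS only, so they could be called only as lower. The ratio of *S1pr1* was 2.12 in Y-linked cells without *Xist*. *Spn* (CD43) was at 435 and 243 CPM (−0.83, −1.24 to −0.42), and the list median was −0.30. The share of mature genes at least 2-fold lower was near the 13.9% of all genes. Of 12 immature NK genes, *Emb* was at least 2-fold higher (84.5 and 341 CPM, 1.95, 1.31 to 2.64) and *Cxcr3* lower (56.3 and 23.2 CPM, −1.12, −2.25 to 0.03), with a median of 0.27.

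Among trafficking receptors, *Cxcr4*, the receptor for CXCL12, was at 68.4 and 281 CPM (log2 ratio 1.96, 1.26 to 2.73), with UMIs in 14 and 53 cells. Its thinned share was 5.10% and 25.7% (12.7% and 45.7% without thinning), against 26.1% and 36.0% in B cells, which express it. *Ccr2* was at 249 and 222 CPM (log2 ratio −0.17, −0.64 to 0.32) and *Itga4* at 632 and 526 CPM (−0.26, −0.57 to 0.05). Of 17 genes measured, 4 were at least 2-fold higher, *Cxcr4*, *Cd69*, *Ccr7* and *Gpr183*, and 3 lower, *Cx3cr1*, *Cxcr3* and *S1pr1*, with a median of −0.17. The share lower was near the 13.9% of all genes and the median near their −0.20. *Ccr7* had 1 and 11 UMIs, a ratio of CPM of 7.05 (1.03 to 304), and *Gpr183* 2 and 9 UMIs, a ratio of 2.89 (0.597 to 27.4, but a log2 ratio of −0.51 with 3 of 4 pan-NK genes). *Ccr7* and *Gpr183* passed the CPM limit with anti–PD-1 only, so they could be called in that direction only.

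Of 18 transcription factors of NK cells measured, 13 were within 2-fold. *Tbx21* (T-bet) was at 282 and 255 CPM (log2 ratio −0.14, −0.59 to 0.32), *Id2* at 1674 and 1259 CPM (−0.41, −0.60 to −0.22), *Zeb2* at 205 and 160 CPM (−0.35, −0.89 to 0.20) and *Runx3* at 245 and 224 CPM (−0.13, −0.60 to 0.36). *Irf8*, which NK cells need for proliferation in viral infection, was at 443 CPM (364 to 533) and 1406 CPM (1291 to 1529), and the log2 ratio was 1.66 (1.36 to 1.96). Its thinned share was 33.7% and 66.1% (in 55 and 100 cells without thinning), against 25.8% and 24.8% in B cells, which express it, and 6.57% and 14.7% in ILC1-like cells. *Nfil3*, needed for NK cell development, was at 36.2 and 212 CPM (2.39, 1.48 to 3.38) and *Bhlhe40* at 229 and 797 CPM (1.78, 1.37 to 2.20). *Foxo1*, a brake on NK cell maturation, was at 121 and 49.0 CPM (−1.22, −2.05 to −0.40), with UMIs in 25 and 16 cells. *Irf8*, *Nfil3* and *Bhlhe40* were the 3 genes at least 2-fold higher of 18 measured, and *Foxo1* and *Ikzf2* (6 and 2 UMIs, a ratio of CPM of 0.214, 0.0211 to 1.20, but a log2 ratio of 1.50 in thinned cells) the 2 lower, with a median of −0.18, beside 5.93% of all genes higher, 13.9% lower and a median of −0.20.

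TGF-β is known to turn conventional NK cells toward an ILC1-like state, so genes of that response were looked at. Of 12 measured, 2 were at least 2-fold higher, the feedback regulators *Tgif1* (64.4 and 263 CPM, log2 ratio 1.95, 1.22 to 2.74) and *Skil* (44.3 and 173 CPM, 1.85, 0.99 to 2.79). *Ldlrad4* (40.2 and 10.3 CPM, −1.56, −2.82 to −0.14) and *Smurf2* (60.4 and 23.2 CPM, −1.21, −2.33 to −0.08) were at least 2-fold lower, and the median was −0.16. The share lower was near the 13.9% of all genes. In Y-linked cells without *Xist*, of which 12 were PBS cells, the ratios turned to 1.69 for *Ldlrad4* and 3.14 for *Smurf2*. Of 12 ILC1 and residency genes outside the rule, 2 were higher, *Rgs1* (290 and 642 CPM, 1.14, 0.76 to 1.53) and *Cd69*, and 2 lower, *Inpp4b* (48.3 and 20.6 CPM, −1.06, −2.24 to 0.16) and *Ikzf2*. The median was −0.08 and the share lower again near 13.9%, and *Zfp683* (Hobit) had no UMI in either library.

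Of 10 type I interferon-stimulated genes measured, most on few UMIs, 6 were at least 2-fold higher, against 5.93% of all genes, and none was at least 2-fold lower. The median was 1.10, 2 genes were below 0, and the intervals of 5 lay above 0. *Isg15* had 4 and 53 UMIs (16.1 and 137 CPM, log2 ratio 2.75, 1.53 to 3.98) and *Ifi27l2a* 6 and 52 (24.1 and 134 CPM, 2.26, 1.18 to 3.40). *Irf7* was at 40.2 and 87.7 CPM (1.04, 0.07 to 2.06) and *Rtp4* at 20.1 and 51.6 CPM (1.17, −0.09 to 2.46). *Oasl2* had 3 and 15 UMIs, a ratio of CPM of 3.21 (0.907 to 17.3), and *Oas1a* 0 and 11, at least 2.35-fold higher against the floor of 3 counts. Of the 6, *Isg15*, *Oasl2* and *Oas1a* reached 20 CPM with anti–PD-1 only, so they could be called in that direction only. The list median was also above 0 in ILC1-like cells (0.76), T cells (1.01), B cells (1.26) and neutrophils (1.71). Thinned shares with *Isg15* were 1.02% and 9.17% in conventional NK cells and 1.88% and 4.70% in B cells, and without thinning 2.73% and 24.1% in conventional NK cells.

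Of 16 interferon-γ response genes measured, 3 were past 2-fold higher by the ratio with 5 CPM added and none lower, with a median of 0.29. The 3 were *Irf8*, *Gbp2* (16.1 and 67.1 CPM, log2 ratio 1.77, 0.48 to 3.06, but −0.78 in thinned cells) and *Iigp1* (0 and 9 UMIs, at least 1.92-fold higher against the floor, a bound that does not reach 2-fold). *Irf1* was at 157 and 286 CPM (0.85, 0.32 to 1.40). Of 12 MHC class I genes, which the inhibitory Ly49 receptors bind or which supply their peptides, *H2-T22* was at least 2-fold higher (101 and 217 CPM, 1.07, 0.44 to 1.74) and none lower. *H2-K1* was at 3046 and 4309 CPM (0.50, 0.38 to 0.63), *H2-D1* at 3504 and 5070 CPM (0.53, 0.42 to 0.65) and *B2m* at 4876 and 6314 CPM (0.37, 0.27 to 0.47). The list median was 0.52, against 0.63 in B cells and 1.00 in neutrophils.

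Cytokine receptors and growth genes were mostly within 2-fold. *Il2rb*, the shared receptor chain for IL-2 and IL-15, was at 1191 and 1409 CPM (log2 ratio 0.24, 0.04 to 0.45), and *Ifngr1* at 668 and 978 CPM (0.55, 0.28 to 0.82). *Il2ra* (2 and 12 UMIs, a ratio of CPM of 3.85, 0.857 to 35.4) and *Il15ra* (1 and 9 UMIs, 5.77, 0.800 to 253) were the 2 at least 2-fold higher of 17 measured, none was lower and the median was 0.20. Both reached 20 CPM with anti–PD-1 only, so they could be called in that direction only. Of 14 proliferation genes, *Pclaf* (24.1 and 72.2 CPM, log2 ratio 1.41, 0.26 to 2.61) and *Mcm5* (32.2 and 69.7 CPM, 1.01, −0.06 to 2.13) were higher and *Ube2c* lower (8 and 2 UMIs, a ratio of CPM of 0.160, 0.0166 to 0.803), and the median was 0.37. All 6 PBS UMIs of *Pclaf* were in 1 cell, and its ratio was −0.15 with no upper limit on detected genes and −2.33 in Y-linked cells without *Xist*. *Mcm5* was at −0.77 in those cells and at −0.34 without the 5 deepest cells. Of the 8 PBS UMIs of *Ube2c* 7 were in 1 cell, and its log2 ratio was 1.10 in thinned cells and 0.19 without the 5 deepest. One PBS cell held 47.3% of the UMIs of that list and 1 anti–PD-1 cell 18.4%. Thinned cells with 2 or more proliferation genes were 12.2% and 16.5% (31.8% and 51.7% without thinning) (difference 4.27 points, −5.57 to 13.8), against 7.94% and 12.2% of B cells. Of 15 glycolysis and nutrient uptake genes, *Tfrc* (3 and 19 UMIs, ratio 4.06, 1.20 to 21.4) and *Slc16a3* (1 and 13 UMIs, ratio 8.34, 1.25 to 354) were at least 2-fold higher, none was lower and the median was 0.32. *Tfrc* and *Slc16a3* too could be called in that direction only.

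**Figure D5:**
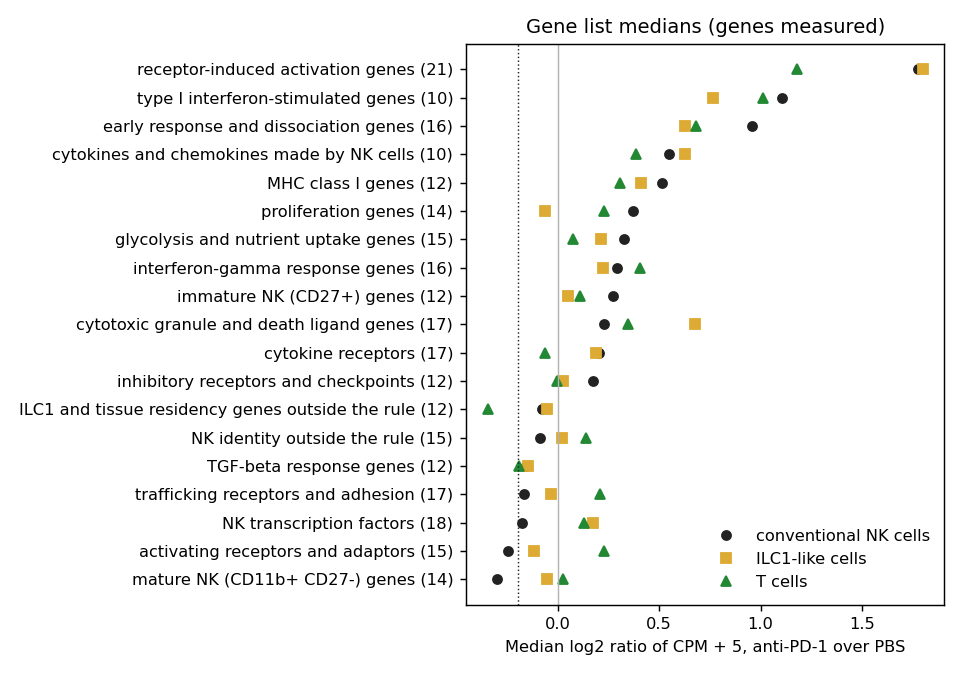
Median log2 ratio of CPM + 5, anti–PD-1 over PBS, of 19 gene lists in conventional NK cells (black circles), ILC1-like cells (yellow squares) and T cells (green triangles), with the number of genes measured after each name. The dotted line marks the median of all genes measured in conventional NK cells (−0.20). Receptor-induced activation genes lie furthest right in all 3 cell types, and mature NK genes furthest left in conventional NK cells.

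The 10 genes with the highest ratio outside the rule were *Il1r2*, *Slpi*, *Klf4*, *Fosl2*, *Mmp9*, *Nr4a1*, *Socs3*, *Cd14*, *Lst1* and *Cxcl2*. Of these, *Il1r2* (0 and 50 UMIs, at least 10.7-fold higher against the floor), *Slpi* (4 and 114), *Mmp9* (0 and 19, at least 4.06-fold) and *Lst1* (1 and 32) are genes of neutrophils and other myeloid cells. The highest anti–PD-1 cell for each gene held 15 of the 50 *Il1r2*, 27 of the 114 *Slpi*, 12 of the 19 *Mmp9* and 14 of the 32 *Lst1* UMIs. *Socs3*, a brake on cytokine signaling, had 1 and 34 UMIs, a ratio of CPM of 21.8 (3.66 to 886), the latter from 27 cells with at most 3 each. *Klf4* had 0 and 23 UMIs, at least 4.92-fold higher, from 16 cells, *Cd14* 1 and 33 from 24 cells and *Cxcl2* 2 and 45 from 31 cells. *Cd14* and *Cxcl2* are myeloid genes too, at 657 and 2421 CPM and at 2559 and 4704 CPM in neutrophils, and their log2 ratios in B cells were 3.36 and 3.23.

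Transcripts of other cells moved with the library. Of 10 neutrophil markers, 8 were measured and all 8 were at least 2-fold higher, with a median of 3.03, or 2.90 with the 3 genes at 0 in the PBS library set to their bound. Their summed level was 185 CPM in PBS cells, with UMIs in 28 cells, and 1865 CPM in anti–PD-1 cells, with UMIs in 94, and 1 anti–PD-1 cell held 40.1% of those UMIs. *Ly6g*, a defining neutrophil marker, had no UMI in either library. The same list had a median of 2.35 in ILC1-like cells, 2.05 in T cells and 2.99 in B cells. Without the cells that had 3 or more UMIs of neutrophil, endothelial and red cell genes, *Nr4a1* was at a ratio of 3.32 and the activation list at 1.80, against 3.36 and 1.78 with them. Cells with 1 or 2 such UMIs stayed in.

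The 10 genes with the lowest ratio were *Hba-a2*, *Hbb-bs*, *Hba-a1*, *Ptprb*, *Ednrb*, *Gpihbp1*, *Eng*, *Hbb-bt*, *Emcn* and *Aqp1*, genes of red blood cells and of endothelium. They came from few PBS cells, and the direction of the globin genes, *Ednrb* and *Aqp1* turned under 1 or more alternatives. *Hbb-bs*, a β-globin gene, had 547 and 8 UMIs, 546 of the 547 in 1 cell, and *Hba-a2* 200 and 1 UMIs, all 200 in 1 cell. *Ednrb* had 27 and 0 UMIs, 25 of them in 1 cell, and *Ptprb*, a phosphatase of endothelium, 35 and 0, at least 18.2-fold lower against the floor, 19 of them in 1 cell. Of 7 endothelial markers, 5 were measured, 4 of them at least 2-fold lower and none higher, with a median of −3.20 (−2.93 with the 2 genes at 0 at their bound). Their sum was 495 and 87.7 CPM, and 1 PBS cell held 53.7% of the PBS UMIs. Of 7 tumor and biliary markers measured, 5 were at least 2-fold lower and 1 higher, with a median of −1.21 and a sum of 3452 and 1226 CPM. *Spp1* (osteopontin) made up most of it, at 2338 and 774 CPM, with UMIs in 92 and 77 cells. Of 11 macrophage markers, 2 were at least 2-fold lower and none higher, a share near the 13.9% of all genes, with a median of −0.23 and a sum of 3082 and 2559 CPM. The part of these cells in the other differences was not tested.

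Within each library, conventional NK cells were set beside ILC1-like cells as a description only, since both sets were cut from the same cells by their transcripts. Values of *Klra1*, *Klra7* and *Klra9* are not independent of the rule, which kept *Klra8* and *Klra4* out of ILC1-like cells, since reads may be split among these near-identical genes. Of 6397 genes compared, 92 were at least 2-fold higher in conventional NK cells in both libraries and 134 at least 2-fold lower. The median log2 ratio over these genes was 0.0023 with PBS and −0.02 with anti–PD-1, which the counts above 0 below stand beside. Among the genes highest in both were *Cma1*, *Klra1*, *Klra7*, *Klrg1*, *Khdc1a*, *Serpinb9b*, *Klra9*, *Cmklr1* and *Sh2d1a*. *Klra7* was at 772 against 29.5 CPM with PBS and at 673 against 28.5 CPM with anti–PD-1, and *Klrg1* at 189 against 7.38 CPM and 201 against 10.1 CPM. *Prf1* was at log2 ratios of 2.79 and 2.08 over ILC1-like cells and *Gzma* at 3.03 and 1.98. The genes lowest in both were *Cd200r2*, *Cd200r1*, *Asb2*, *Pdcd1lg2* and *Podnl1*. *Cd200r1*, an inhibitory receptor of liver ILC1, was at 8.05 against 151 CPM and 2.58 against 127 CPM. Of the 12 ILC1 and residency genes, none was above 0 over ILC1-like cells in either library, with medians of −2.18 and −2.21, whereas all 14 mature NK genes were above 0 with PBS and 12 with anti–PD-1, with medians of 1.79 and 1.81. *Irf8* was also higher in conventional NK cells, at log2 ratios of 1.91 (1.46 to 2.36) and 2.46 (2.20 to 2.73). Of 21 activation genes, 6 were above 0 over ILC1-like cells with PBS (median −0.28) and 11 with anti–PD-1 (median 0.01).

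*Yap1*, a target of the shRNA, had no UMI in conventional NK cells of either library, and *Wwtr1*, the gene of TAZ and the other target, had 3 and 0 UMIs. Neither could be compared at this depth, and both libraries carry the shRNA.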

How the data were processed

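The authors sequenced 2 libraries of tumor-bearing liver with the Singleron GEXSCOPE method and deposited a table of UMI counts per gene and cell for each, counted against mm10 with the Singleron software, whose version is not given in the sources used here. Seurat 4.3 is named in the submitters' processing notes. Of 32589 genes listed, 32445 (99.56%) matched GENCODE vM21 by identifier, and 100 entries share a symbol with another.

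Conventional NK cells were chosen by the limits given above, and their raw counts were summed per library. With 1 library per group no test was made. Intervals are exact Poisson for levels, Clopper-Pearson for shares, Newcombe for differences of shares and exact conditional binomial for ratios. UMIs mark molecules, and the intervals cover counting error only. Genes with no UMI in 1 library were set against a floor of 3 counts. The members and gene lists were chosen with earlier results of these data known.

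Named genes were those of the rule, the 10 highest and 10 lowest ratios outside it, of each list up to 4 measured genes with the largest ratio (for identity and granule lists also the 4 highest levels), *Pdcd1*, *Ifng*, *Gzmb*, *Gzma*, *Prf1*, *Cd27*, *Itgam*, *Klrg1*, *Tbx21*, *Yap1* and *Wwtr1*, and the 10 highest and 5 lowest over ILC1-like cells. Further genes of the lists were named after their values were seen. Some genes that the rule names are not reported here. Calls were made at 2-fold among genes with 20 CPM in either library. Doublets were marked by a nearest-neighbour simulation on 30 components (2.67% and 3.99% of cells) and kept, and leaving them out was an alternative. For shares of cells with a UMI, cells were thinned to 1000 UMIs (2000 as an alternative) and shallower cells left out, among them 3 and 2 members. An estimate from 65 marker genes put free RNA at 12.2% and 13.7% of UMIs. Promoters were taken from RefSeq. The steps were tested on simulated data. Python 3.11.15 was used with numpy 2.4.6, scipy 1.17.1, pandas 2.3.3, scikit-learn 1.9.0, scikit-image 0.26.0 and matplotlib 3.10.9.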

Additional observations from a re-analysis of the deposited data

How the results depend on the processing

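No paired analysis was possible because each group is 1 library. One library per group and few cells set the limits: at 20 CPM a gene rests on 4.97 and 7.75 UMIs. Of 361 list medians under alternatives, 354 moved by less than their counting interval, 7 moved further and 0 changed sign past 2-fold. Of 2831 values of 149 named genes, 2471 stayed within their interval, 321 moved and 39 of called genes changed sign. The activation list stayed between 1.62 and 2.33, *Nr4a1* between 2.48 and 3.87 and *Gzma* between −0.28 and 0.28. Causes were not tested.

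The difference in the share of kept cells was 0.288 points with 1 UMI of the absent genes allowed. It was −0.265 when members holding other-cell UMIs were left out and all kept cells stayed in the denominator. In the lineage gate the difference was 8.08 (−7.35 to 22.8, which spans 0) without cells with a T cell receptor UMI, which also left the denominator. It was −11.1 without members with other-cell UMIs, where the denominators stayed at 360 and 372, so each share could only fall. Against 453 genes higher and 1065 lower, there were 1201 and 2379 without T cell receptor UMIs, 975 and 1830 in thinned cells, 1079 and 1895 with no CPM limit, 222 and 330 at 50 CPM and 1974 and 2394 in Y-linked cells without *Xist*. The counts were 377 higher and 695 lower with 1 UMI of the absent genes allowed, and 331 higher and 646 lower with a mean of 20 CPM. The immature median was 0.95 in the Y-linked cells. Without thinning, differences in shares were 52.2 points for *Fosl2*, 61.4 for *Vps37b* (59.8 at 2000 UMIs), 62.7 for *Tnfaip3*, 22.2 for *Ifng* and 19.9 for 2 or more proliferation genes. The alternatives with other-cell UMIs, 1 absent-gene UMI, the mean of 20 CPM and the 5 deepest cells were chosen after seeing the data.

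Signs changed mostly for genes of few UMIs or of 1 cell. In the Y-linked cells the log2 ratio was 1.08 for *Aqp1*, 2.45 for *Crtam*, 2.72 for *Flt3l*, 2.45 for *Hbb-bs*, 1.08 for *Hbb-bt*, 2.12 for *Khdc1a*, 1.69 for *Ldlrad4*, −0.77 for *Mcm5*, −2.33 for *Pclaf*, −0.35 for *Rel*, 2.12 for *S1pr1*, 3.14 for *Smurf2*, −0.80 for *Tigit* and 2.72 for *Unc13d*. In thinned cells it was 0.15 for *Crtam*, 1.50 for *Ednrb*, −0.78 for *Gbp2*, 1.10 for *Hba-a1*, 2.19 for *Hbb-bs*, 3.06 for *Hbb-bt*, 1.50 for *Ikzf2*, −0.43 for *Tigit*, 1.10 for *Ube2c* and 1.14 for *Unc13d*. With 3 of 4 pan-NK genes it was −0.51 for *Gpr183*, 1.01 for *Hba-a1*, 0.74 for *Hba-a2*, 2.68 for *Hbb-bs* and 0.74 for *Hbb-bt*. Without T cell receptor UMIs it was 3.26 for *Crtam*, 0.79 for *Hba-a1* and 2.40 for *Hbb-bs*. Without other-cell UMIs it was 0.76 for *Hba-a1*, 0.14 for *Hbb-bs* and 1.12 for *Hbb-bt*. With equal weight per cell it was 0.29 for *Crtam*, with no upper limit on genes −0.15 for *Pclaf*, and without the 5 deepest cells −0.34 for *Mcm5* and 0.19 for *Ube2c*.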
